A study of Mus musculus with 20 samples.

Results

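Collagens are secreted or membrane-anchored proteins built from 3 chains wound into a triple helix, and each chain is the product of its own gene, named Col, the collagen type, a and the chain number. Fibrillar types such as I, III and V assemble into the fibrils that bear load, type IV forms the sheet of the basement membrane, type VI forms beaded filaments around cells, and fibril-associated collagens (FACITs) coat and link fibrils. In white adipose tissue (WAT) the matrix around each fat cell is rich in types I, III, IV, V and VI, and in a healthy liver collagen is sparse outside portal tracts and vessel walls. All array probes whose gene name in the scanner files had the form of a collagen chain were taken, 78 probes for 40 genes among 41174 non-control probes. Of these, 68 probes for 38 genes were well above background on at least 4 of 10 arrays of WAT, and 40 probes for 28 genes did so in liver, all of them also measured in WAT. The other 10 probes were kept in neither tissue, among them the single Col10a1 probe and both Col24a1 probes. Near this limit, 3 kept probes in each tissue were above background on 4 or 5 arrays, and 11 liver probes and 2 WAT probes missed it with 1 to 3 arrays.

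The arrays measured sg/sg WAT, WT WAT, sg/sg liver and WT liver, with 5 arrays per group from male C57BL/6 mice. sg/sg mice (RORasg/sg, the staggerer allele) carry a natural deletion within Rora throughout the body, which encodes the transcription factor RORα, and WT mice carry the intact gene. Animals of both genotypes were 5 months old and had eaten a high fat diet with 35% fat for 6 weeks, so no group on a standard diet was compared. The labels do not name the fat depot. Rora was lower in all sg/sg arrays than in all WT arrays with each of its 3 probes, by 2.72 to 2.75 in WAT and, for the 2 probes above background in sg/sg liver, by 2.86 and 2.88 in liver on the log2 scale, but whether these probes lie in the deleted stretch was not settled. As a measure of brightness, the 75th percentile lay between 1352.2 and 2052.5 on sg/sg WAT, 1936.4 to 2598.1 on WT WAT, 647.7 to 901.4 on sg/sg liver and 817.4 to 1089.9 on WT liver arrays. Liver slides and genotypes overlapped in 1 slide alone, which held WT replicate 5 and sg/sg replicates 1 to 3. Of the adipocyte genes, Adipoq and Plin1 were above background on all WAT arrays, Adipoq on 1 sg/sg liver array and Plin1 on 0 liver arrays. Cidec and Fabp4 were above background on all liver arrays, and Cfd on 5 WT and 3 sg/sg liver arrays. Of 6 hepatocyte markers 5 were measured in WAT, with Alb above background on all WAT arrays. A level is the log2 intensity of a probe minus the 75th percentile of its array, and a difference is sg/sg minus WT in log2 units with its standard error (SE). A probe was called when its adjusted p from limma, over all probes kept in the tissue, was under 0.05. Values are listed in the order of replicates 1 to 5.

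The triple helix requires the small amino acid glycine at regular steps along the chain, 1 in 3 residues, and a glycine codon begins with GG. Only 3 of the 41174 probes kept GG in that register along all of their 60 bases, and all belonged to fibrillar collagen chains. They are shown because this repeat is the common mark of the family and because 2 of the genes, Col5a3 and Col11a2, are called in liver with another probe. Capitals mark the first 2 bases of each glycine codon. Positions are those of the scanner files on build mm7, at chr2:27994034-27996457 on the plus strand for Col5a1, chr9:20655471-20656200 on the minus strand for Col5a3 and chr17:32131401-32131567 on the plus strand for Col11a2. Each position spans more than the 60 bases of the probe, so these probes cross introns of the coding sequence.
Col5a1: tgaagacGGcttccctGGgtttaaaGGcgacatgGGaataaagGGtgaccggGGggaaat
Col5a3: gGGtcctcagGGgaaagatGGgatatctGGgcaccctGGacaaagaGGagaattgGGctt
Col11a2: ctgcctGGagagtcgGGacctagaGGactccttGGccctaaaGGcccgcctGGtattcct
None of these probes was called between genotypes in either tissue. In WAT the differences were -0.18 (SE 0.32) for Col5a1, -0.17 (SE 0.14) for Col5a3 and 0.26 (SE 0.18) for Col11a2. In liver they were 0.46 (SE 0.16), 0.06 (SE 0.26) and 0.17 (SE 0.16) for the same 3 genes.

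The main result in WAT was a lower level of the abundant matrix collagens in sg/sg mice. Of 68 measured probes 27 were called, 23 lower and 4 higher, where 9.14% of all probes kept in WAT were called lower and 12.8% higher. By gene, 15 genes had a lower probe and 3 genes, Col4a6, Col8a2 and Col19a1, had a higher one. These counts include 1 lower probe, of Col6a3, and 1 higher probe, of Col19a1, that were above background on 0 or 1 arrays of the low genotype and were kept through the other, which leaves 22 lower and 3 higher. The genotypes did not overlap, with sg/sg lower, for 20 of the 68 probes (background 8.71% of all probes), and with sg/sg higher for 2 (background 12.1%). The median difference of the 68 probes was -0.17, beside 0.08 over all probes kept. Among the 22 collagen probes with a mean level over the 75th percentile of the arrays, 16 were lower and 0 were higher. Of all 9959 probes that bright, 966 were lower and 1241 were higher. The median difference of the bright collagen probes was -0.71, beside 0.05 for all probes that bright. Among the 46 dimmer collagen probes 7 were lower and 4 were higher. Of all 22356 dimmer probes, 1988 were lower and 2888 were higher. The median of the dimmer collagen probes was -0.08, beside 0.09 for all dimmer probes. With normexp background correction the median moved to 0.49 over all probes kept in WAT and to 0.38 over the collagens, and 10 collagen probes were called, 9 lower and 1 higher, in a fit that called 4.62% of all probes. The brightest probes of Col1a2, Col3a1, Col4a2, Col6a1, Col12a1, Col14a1, Col8a2 and Col19a1 lost their call in that setting, at adjusted p of 0.0544 to 0.657, as did a dimmer probe each of Col3a1, Col4a1, Col4a2, Col4a6 and Col15a1 at 0.0857 to 0.370. With median scaling 24 were called, in a fit that called 17.7% of all probes. The brightest probes of Col3a1 (adjusted p = 0.0888) and Col5a1 (adjusted p = 0.0749) lost their call there. These arrays read whole tissue, so fewer cells of a type and less RNA per cell cannot be told apart.

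**Figure D1:**
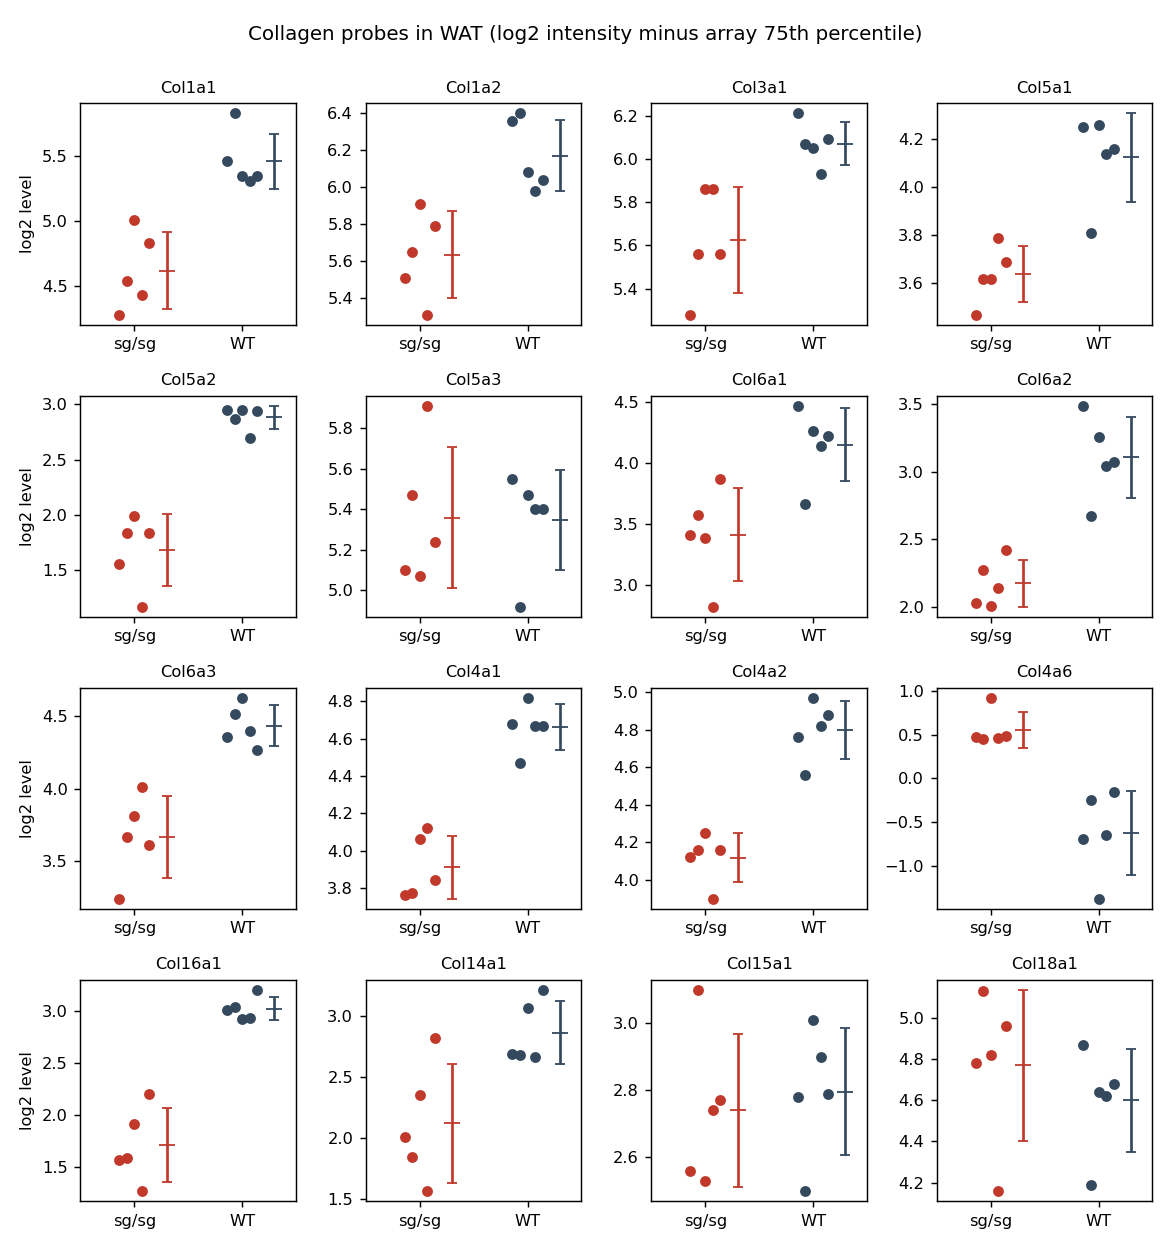
Log2 level (intensity minus the 75th percentile of the array) of the brightest probe of 16 collagen genes in WAT, 1 point per array, with sg/sg left of WT and the mean ± SD of 5 arrays beside the points. The sg/sg points lie under all WT points for Col1a1, Col1a2, Col3a1, Col5a1, Col5a2, Col6a2, Col6a3, Col4a1, Col4a2 and Col16a1, above all of them for Col4a6, and among them for Col5a3, Col15a1 and Col18a1.

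Fibrillar collagens were lower in sg/sg WAT for 6 of 10 measured genes (9 of 21 probes), with 0 probes higher. Col1a1, the chain present in 2 copies in type I collagen, had levels of 4.28, 4.54, 5.01, 4.43 and 4.83 in sg/sg WAT, against 5.46, 5.83, 5.35, 5.31 and 5.35 in WT WAT at chr11:95060800-95060859. All sg/sg arrays were under all WT arrays, and the level fell by 0.84 (SE 0.16, 1.79-fold, adjusted p = 0.00567). The other Col1a1 probes, at chr11:95059777-95059836 and chr11:95047002-95047061, fell by 1.11 (SE 0.22) and 0.94 (SE 0.21), the last of which was 0.05 with normexp background correction. Col1a2, the partner chain of type I, had 5.51, 5.65, 5.91, 5.31 and 5.79 in sg/sg WAT, against 6.36, 6.40, 6.08, 5.98 and 6.04 in WT WAT. Again no arrays overlapped, with a fall by 0.54 (SE 0.14, 1.46-fold, adjusted p = 0.0206). Without WT replicate 1 the Col1a2 call was lost (-0.50, adjusted p = 0.0540). A dimmer Col1a2 probe was at -0.28 (SE 0.19) and was not called.

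Col3a1, which forms type III fibrils in compliant tissues, had 5.28, 5.56, 5.86, 5.86 and 5.56 in sg/sg WAT, against 6.21, 6.07, 6.05, 5.93 and 6.09 in WT WAT at chr1:45585395-45585454. The groups were separate by a small margin, and the level fell by 0.45 (SE 0.13, 1.36-fold, adjusted p = 0.0303). This call was lost, at differences of -0.45 to -0.36 and adjusted p of 0.0517 to 0.0732, without any of WT replicates 1, 2, 3 and 5 or sg/sg replicates 1, 2 and 5. A second Col3a1 probe, at chr1:45558167-45558226, fell by 0.97 (SE 0.18, adjusted p = 0.00467), but by 0.43 and without a call with normexp (adjusted p = 0.370), and the third and dimmest was at 0.08 (SE 0.31). Col2a1, best known as the main collagen of cartilage, fell by 0.75 (SE 0.16, 1.69-fold, adjusted p = 0.00874) at its brightest probe. Its sg/sg arrays read 0.13, 0.09, 0.65, 0.79 and 0.26, under the WT arrays at 1.24, 1.36, 1.03, 0.94 and 1.11. A second Col2a1 probe was at 0.06 (SE 0.13), so the probes of this gene disagreed.

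The 3 chains of type V collagen, which sits inside type I fibrils and sets their width, behaved unequally in WAT. Col5a2 had 1.56, 1.84, 1.99, 1.17 and 1.84 in sg/sg WAT, against 2.95, 2.87, 2.95, 2.70 and 2.94 in WT WAT at chr1:45613427-45613486. It fell by 1.20 (SE 0.15, 2.30-fold, adjusted p = 0.00117), the largest fall among the brightest probes of the fibrillar genes. For Col5a1 the levels were 3.47, 3.62, 3.62, 3.79 and 3.69 in sg/sg WAT, against 4.25, 3.81, 4.26, 4.14 and 4.16 in WT WAT, a fall by 0.48 (SE 0.11, 1.40-fold, adjusted p = 0.0130). Col5a3, the least widespread chain of the type, had 5.10, 5.47, 5.07, 5.91 and 5.24 in sg/sg WAT, against 5.55, 4.92, 5.47, 5.40 and 5.40 in WT WAT. Its groups overlapped widely, and the difference was 0.01 (SE 0.18, adjusted p = 0.976). Col11a1, Col11a2 and Col27a1, minor fibrillar chains, had no called probe in WAT.

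Whether chains of a type changed by different amounts was tested within arrays, as the difference between the brightest probes of a pair, with a two-sided exact permutation test of 5 against 5 arrays. The 7 pairs were chosen after their values were seen and were tested in both tissues. Benjamini-Hochberg adjustment ran over the 14 tests and does not cover that choice. In WAT Col5a1 fell less than Col5a2, by 0.72 (SD 0.38 in sg/sg and 0.19 in WT, exact p = 0.00794, adjusted 0.0278, n = 5 each), with no overlap between genotypes. Set against Col5a3, the Col5a1 difference was lower by 0.50 (SD 0.27 in sg/sg and 0.07 in WT, exact p = 0.00794, adjusted 0.0278), and 0.00794 is the smallest p this design can give. Col1a1 differed from Col1a2 by -0.30 (exact p = 0.0238, adjusted 0.0666), which missed the threshold. For Col3a1 against Col1a2, Col4a1 against Col4a2, Col6a1 against Col6a2 and Col6a1 against Col6a3 in WAT the differences of change ran from -0.07 to 0.19, with exact p of 0.246 to 0.944.

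All 3 measured chains of type VI collagen, the beaded filament around fat cells, were lower in sg/sg WAT. Of their 6 probes 5 were called lower, 1 of them near background and kept through WT alone. Col6a3 had 3.24, 3.67, 3.81, 4.01 and 3.61 in sg/sg WAT, against 4.36, 4.52, 4.63, 4.40 and 4.27 in WT WAT at chr1:90671098-90671157, and fell by 0.77 (SE 0.14, 1.71-fold, adjusted p = 0.00495). Its other probes were at -1.03 (SE 0.18) and -2.24 (SE 0.33), and both were above 0 with normexp, at 0.13 and 1.13. The dimmest of these reached the background limit on 0 of 5 sg/sg arrays and was kept through WT alone, so its value is given without a statement of a fall. Col6a2 had 2.03, 2.27, 2.01, 2.14 and 2.42 in sg/sg WAT, against 3.49, 2.67, 3.26, 3.04 and 3.07 in WT WAT, and fell by 0.93 (SE 0.15, 1.91-fold, adjusted p = 0.00293). A second Col6a2 probe was at -0.13 (SE 0.14) and was not called. Levels of Col6a1 were 3.41, 3.57, 3.38, 2.82 and 3.87 in sg/sg WAT, against 4.47, 3.66, 4.26, 4.14 and 4.22 in WT WAT. Only sg/sg replicate 5 reached into the WT range, and the fall was 0.74 (SE 0.20, 1.67-fold, adjusted p = 0.0277). The Col6a1 call was lost, at adjusted p of 0.0539 to 0.0675 and differences of -0.74 to -0.66, without any of WT replicates 1, 3, 4 and 5 or sg/sg replicates 1 and 3.

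**Figure D2:**
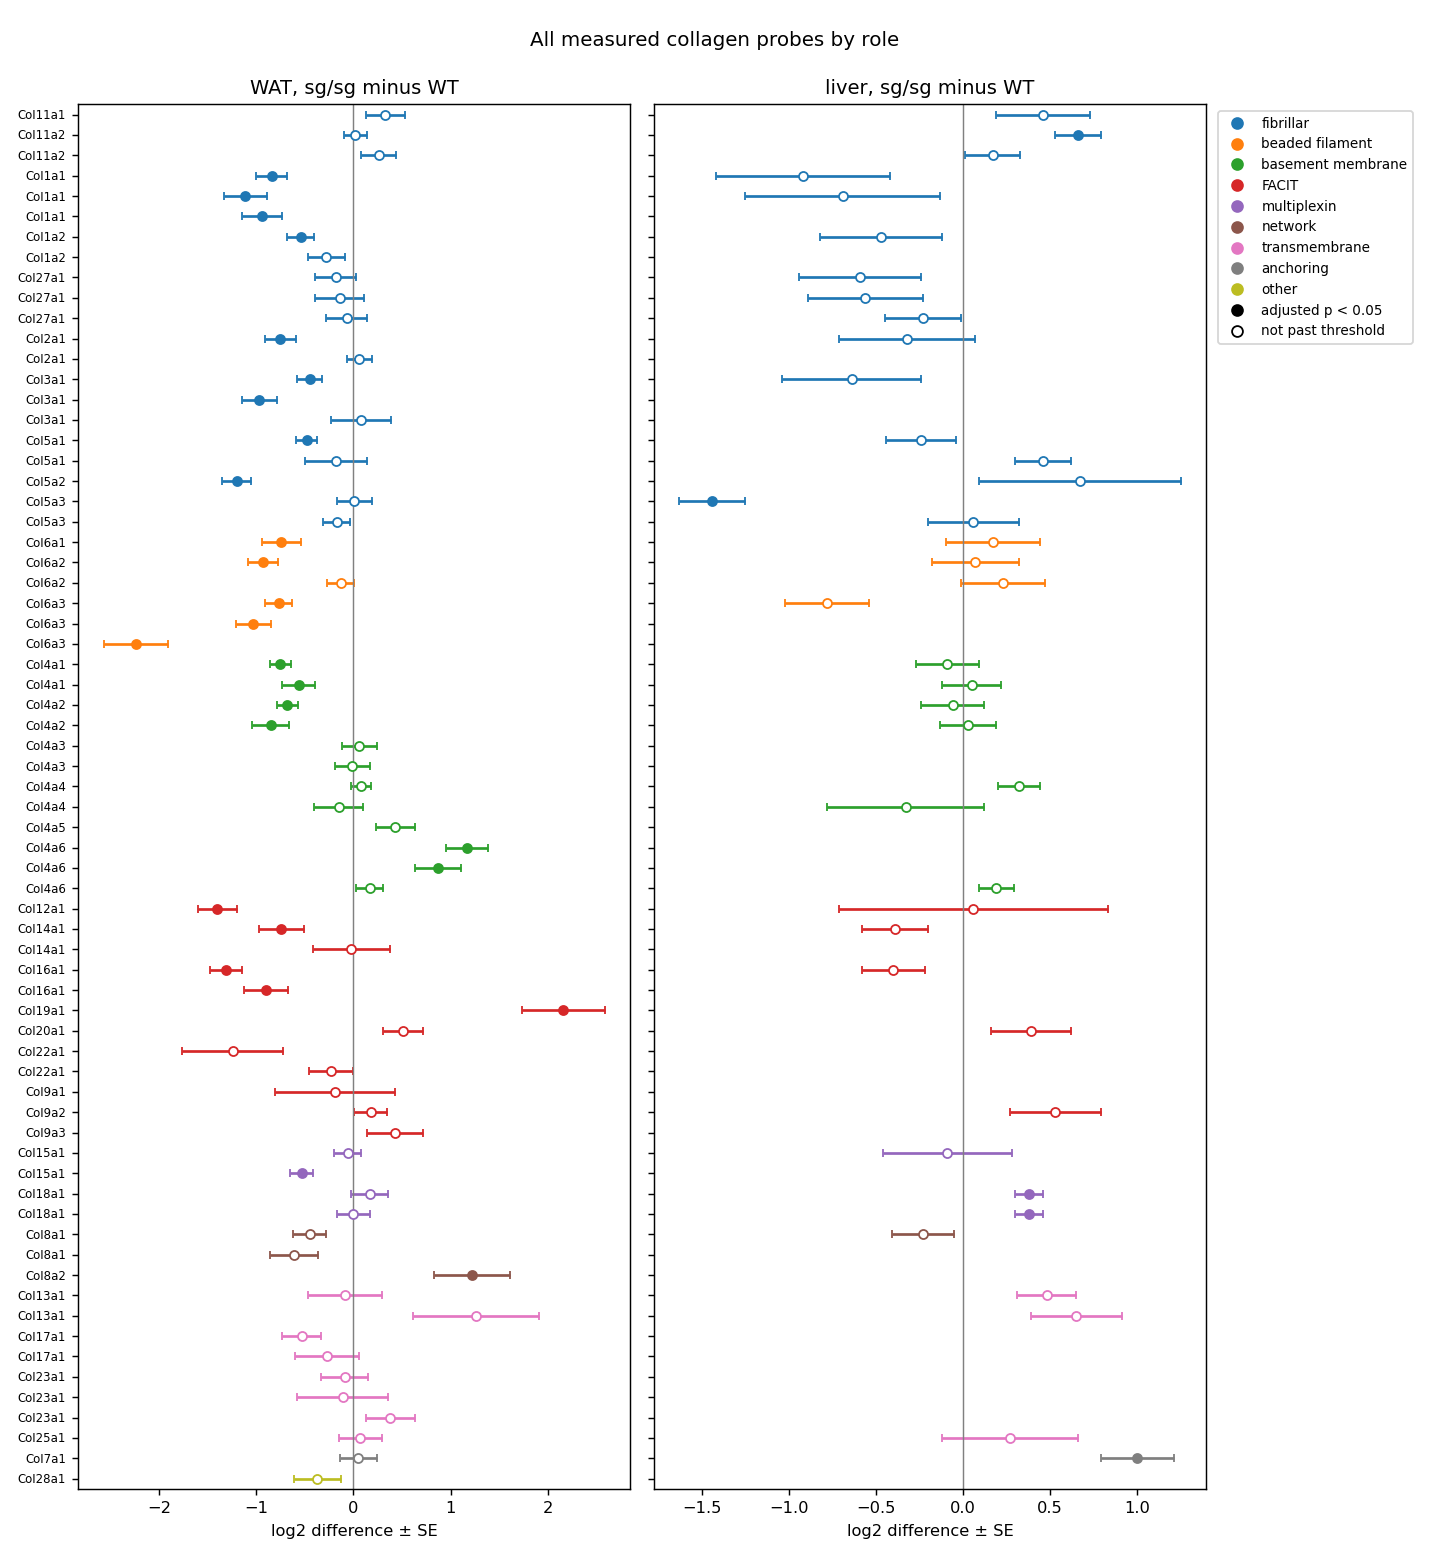
Log2 difference (sg/sg minus WT, ± SE, 5 arrays per genotype) of each measured collagen probe in WAT on the left and liver on the right, in rows grouped and coloured by role and on axes of different width, with filled points for an adjusted p under 0.05. In WAT 23 filled points lie left of 0 and 4 right of it, and in liver 1 lies left and 4 lie right.

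Basement membrane collagens moved in both directions in WAT. The common chains fell with both of their probes, and Col4a6 rose with 2 of its 3 probes. Col4a1 had 3.76, 3.77, 4.06, 4.12 and 3.84 in sg/sg WAT, against 4.68, 4.47, 4.82, 4.67 and 4.67 in WT WAT at chr8:11167020-11167079, a fall by 0.75 (SE 0.11, 1.68-fold, adjusted p = 0.00179). The other Col4a1 probe fell by 0.56 (SE 0.17, adjusted p = 0.0442), a call kept without sg/sg replicate 3 or 4 and lost without any other array (-0.60 to -0.49, adjusted p = 0.0546 to 0.100). Col4a2 had 4.12, 4.16, 4.25, 3.90 and 4.16 in sg/sg WAT, against 4.76, 4.56, 4.97, 4.82 and 4.88 in WT WAT at chr8:11416851-11416910, a fall by 0.68 (SE 0.11, 1.60-fold, adjusted p = 0.00233). A further Col4a2 probe fell by 0.85 (SE 0.19, adjusted p = 0.0121). Within the array the Col4a1 and Col4a2 changes differed by -0.07 (SD 0.25 in sg/sg and 0.05 in WT, two-sided exact permutation p = 0.587).

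Col4a1 and Col4a2 are transcribed in opposite directions from a shared control region. It is shown because both genes fell by like amounts in WAT, and its part in those falls was not tested. The windows of 250 bases before to 50 after the start in RefSeq (GRCm38.p6) lie at chr8:11312777-11313076 on the minus strand for Col4a1 and chr8:11312555-11312854 on the plus strand for Col4a2. The starts used, at 11312826 for Col4a1 and 11312805 for Col4a2, are 21 bases apart. Both annotated transcripts thus overlap at their first bases, with no gap between them. Capitals mark the 78 bases that both windows hold, read from opposite strands. They take in the first 50 bases of each annotated transcript and are not a stretch upstream of both genes.
Col4a1: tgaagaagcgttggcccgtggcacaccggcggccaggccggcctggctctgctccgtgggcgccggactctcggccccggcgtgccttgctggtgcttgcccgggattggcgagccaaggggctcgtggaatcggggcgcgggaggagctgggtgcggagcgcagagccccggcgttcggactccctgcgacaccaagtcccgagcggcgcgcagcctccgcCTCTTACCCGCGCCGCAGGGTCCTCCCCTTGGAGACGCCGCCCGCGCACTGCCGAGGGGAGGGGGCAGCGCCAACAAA
Col4a2: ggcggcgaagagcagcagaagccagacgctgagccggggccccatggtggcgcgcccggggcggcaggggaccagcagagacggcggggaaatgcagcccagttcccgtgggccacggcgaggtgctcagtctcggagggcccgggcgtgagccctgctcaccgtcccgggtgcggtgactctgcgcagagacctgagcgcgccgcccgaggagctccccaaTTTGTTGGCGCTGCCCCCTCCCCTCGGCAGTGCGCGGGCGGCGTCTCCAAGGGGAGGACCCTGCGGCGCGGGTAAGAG
Of the 40 genes, 32 had such windows, 35 in all. The letters of 4 motifs were searched on both strands, overlaps between motifs were kept, and the share of all 32851 windows that hold each is given beside the collagens. The GC box letters GGGCGG were in 20 collagen windows (57.1%, against 35.7% of all windows), among them those of Col4a1 and Col4a2. CCAAT was in 12 (34.3%, against 37.4%) and TATAAA in 5 (14.3%, against 13.6%). AGGTCA, the half-site core that ROR receptors bind, was in 7 of 35 (against 16.3% of all windows), in Col4a4, Col7a1, Col9a1, Col11a1, Col20a1, Col23a1 and Col24a1. Of these, Col7a1 alone was called between genotypes in the main fits, which held no slide block. Col20a1 and Col23a1 were called in WAT with slide as a fixed block.

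Col4a6, an X-linked chain found in the basement membranes of smooth muscle and some epithelia, had 0.47, 0.45, 0.92, 0.46 and 0.48 in sg/sg WAT, against -0.69, -0.24, -1.37, -0.64 and -0.16 in WT WAT at chrX:135829764-135829823. Every sg/sg array was above every WT array, and the level rose by 1.17 (SE 0.22, 2.26-fold, adjusted p = 0.00482). A second probe of the gene rose by 0.87 (SE 0.24, 1.83-fold, adjusted p = 0.0265), and this call was lost without any of WT replicates 1, 3 and 4 or sg/sg replicates 1, 3 and 5 (0.72 to 0.88, adjusted p = 0.0519 to 0.0640). The third was at 0.17 (SE 0.14). Summed levels of marker lists are on a linear scale, in multiples of the 75th percentile of the array. Over all probes kept in WAT 12.8% were called higher and 9.14% lower. Of 6 mesothelial markers 4 were higher in sg/sg WAT, with a summed level of 22.5 to 35.7 in sg/sg and 6.72 to 28.9 in WT WAT. Of 4 smooth muscle markers 3 were higher, with a summed level of 56.1 to 65.8 in sg/sg and 41.8 to 56.3 in WT WAT. The other, Acta2, was at 0.06 (SE 0.16) and was not called. A dimmer Acta2 probe read 3.75 to 4.40 in sg/sg WAT and 4.40 to 4.69 in WT WAT. The part of these markers in the Col4a6 result was not tested. Col4a5, which pairs with Col4a6 in the trimer, was at 0.43 (SE 0.20, adjusted p = 0.157), and Col4a3 and Col4a4, best known from kidney, ranged from -0.15 to 0.08 and were not called.

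FACIT collagens had 4 lower and 1 higher of 12 probes in WAT. Col16a1, a short chain that binds fibrils and basement membranes, had 1.57, 1.59, 1.91, 1.27 and 2.20 in sg/sg WAT, against 3.01, 3.03, 2.92, 2.93 and 3.20 in WT WAT at chr4:129543748-129543807. All sg/sg arrays were well under the WT arrays, with a fall by 1.31 (SE 0.16, 2.47-fold, adjusted p = 0.00115). A dim second probe fell by 0.90 (SE 0.23) and was at 1.03 with normexp. Col14a1, which coats type I fibrils, had 2.01, 1.85, 2.35, 1.57 and 2.82 in sg/sg WAT, against 2.69, 2.68, 3.06, 2.66 and 3.21 in WT WAT, with 1 sg/sg array in the WT range. It fell by 0.74 (SE 0.23, 1.67-fold, adjusted p = 0.0432), a call kept when sg/sg replicate 5 was left out and lost when any other WAT array was (-0.80 to -0.60, adjusted p = 0.0565 to 0.0954). Col12a1, a long chain that links fibrils under tension, was dim, at -6.05, -6.03, -5.35, -5.80 and -5.11 in sg/sg WAT, against -4.51, -3.91, -4.34, -4.15 and -4.42 in WT WAT. It fell by 1.40 (SE 0.20, 2.64-fold, adjusted p = 0.00181), but was at 0.38 with normexp. Col19a1, a rare basement membrane-zone chain, was near background, on 4 sg/sg arrays and 1 WT array above it, and was kept through sg/sg alone, so its value of 2.16 (SE 0.43) is given without a statement of a rise.

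The multiplexins Col15a1 and Col18a1, basement membrane-zone collagens whose ends release angiogenesis inhibitors, did not follow the fibrillar chains in WAT. Col18a1 had 4.78, 5.13, 4.82, 4.16 and 4.96 in sg/sg WAT, against 4.87, 4.19, 4.64, 4.62 and 4.68 in WT WAT, a difference of 0.17 (SE 0.19, adjusted p = 0.571). The brightest Col15a1 probe read 2.56, 3.10, 2.53, 2.74 and 2.77 in sg/sg WAT, against 2.78, 2.50, 3.01, 2.90 and 2.79 in WT WAT, a difference of -0.06 (SE 0.14, adjusted p = 0.809). Both genes overlapped between genotypes at these probes. A dimmer Col15a1 probe, at chr4:47326215-47326274, was at -0.53 (SE 0.12, adjusted p = 0.0141), a call lost with normexp (-0.33, adjusted p = 0.246) and with median scaling (-0.52, adjusted p = 0.0594). Of the network-forming type VIII chains, Col8a2 rose by 1.22 (SE 0.39, 2.33-fold, adjusted p = 0.0477) and both Col8a1 probes, at -0.45 and -0.61, were not called. The Col8a2 call was kept without WT replicate 2 and lost without any other WAT array (0.98 to 1.26, adjusted p = 0.0703 to 0.108). None of the 8 probes of transmembrane collagens, nor Col7a1 or Col28a1, was called in WAT without slide as a block.

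Slides 1, 2 and 3 each held both genotypes in WAT. The falls of 4 leading chains kept their sign within each slide, with differences for Col1a1 of -0.92, -1.29 and -0.43, for Col4a1 of -0.80, -0.80 and -0.72, for Col5a2 of -1.45, -1.22 and -1.02, and for Col6a3 of -0.66, -1.22 and -0.57 at their brightest probes. With slide as a fixed block 29 collagen probes were called, 22 lower and 7 higher, in a fit that called 18.8% of all probes. The 3 gained were probes of Col13a1 (1.69, adjusted p = 0.0295), Col20a1 (0.62, adjusted p = 0.0295) and Col23a1 (0.53, adjusted p = 0.0361), all higher. The Col4a1 probe with an adjusted p of 0.0442 was at 0.0540 in that fit.

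Other genes of collagen biology in WAT were counted over lists of their measured members. Over all probes kept in WAT 9.14% were called lower and 12.8% higher. Of 25 chaperones and modifying enzymes 5 were lower and 1 was higher, with a median of -0.27 beside 0.08 over all probes. The lower ones were Pcolce2, an enhancer of procollagen cleavage (-1.75, SE 0.20), Plod1, a lysyl hydroxylase (-0.84, SE 0.20), Bmp1, the procollagen C-proteinase (-0.82, SE 0.12), Colgalt1, a collagen galactosyltransferase (-0.74, SE 0.10), and P3h1, a prolyl hydroxylase (-0.68, SE 0.17). P3h4, a partner of lysyl hydroxylase, rose by 0.59 (SE 0.14). Of 6 crosslinking enzymes 2 were lower, the lysyl oxidase relatives Loxl2 (-0.80, SE 0.19) and Loxl1 (-0.49, SE 0.13). Among 23 genes of fibril-associated matrix 8 were lower and 2 were higher (median -0.54). Postn, a matrix protein of remodelling tissue, fell by 1.53 (SE 0.21), Fn1 by 1.38 (SE 0.35) and Tnc by 0.98 (SE 0.13), while Fbln1, a fibulin, rose by 1.41 (SE 0.16) and Fmod, a fibril-binding proteoglycan, by 0.92 (SE 0.23).

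**Figure D3:**
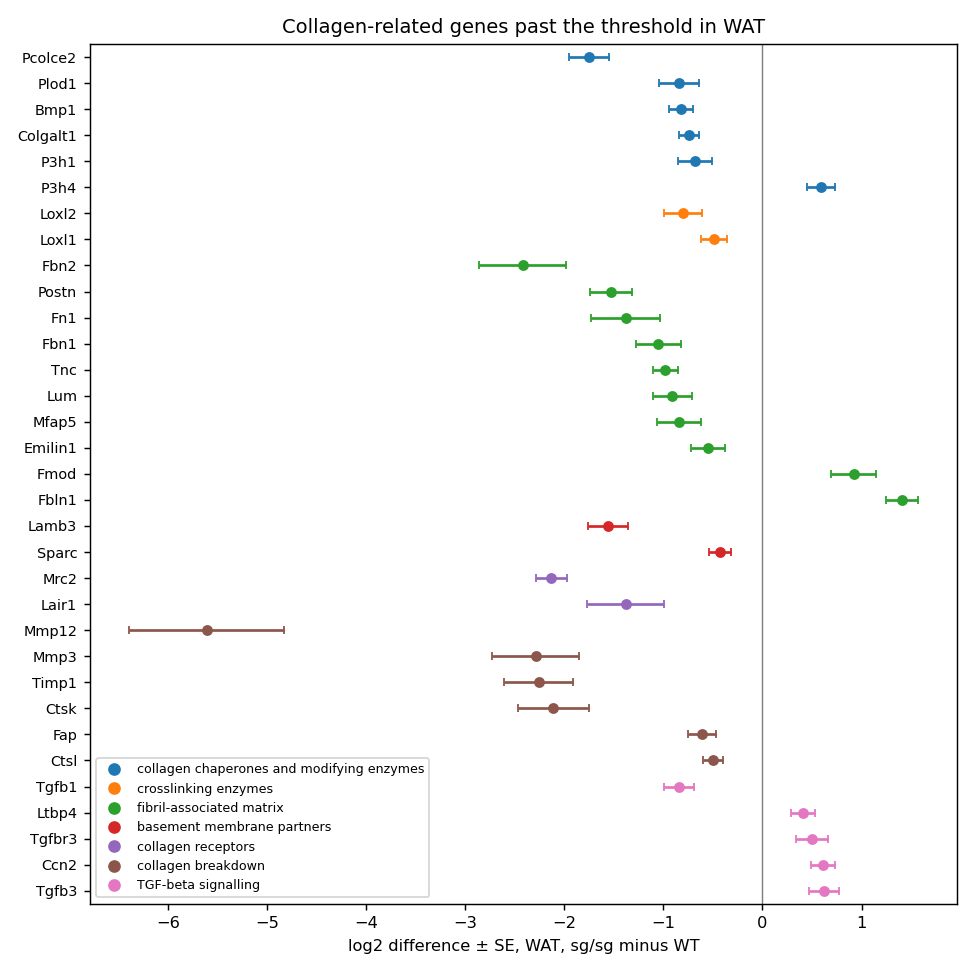
Log2 difference in WAT (sg/sg minus WT, ± SE, 5 arrays per genotype) of every gene past the threshold in 7 lists of collagen biology, coloured by list. Mmp12 of the breakdown list lies furthest left at -5.61, and Fbln1 at 1.41 lies furthest right.

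Of 17 genes of collagen breakdown, a list that holds Timp inhibitors too, 6 were lower and 0 were higher, with a median of -0.61. For this and the next lists, 9.14% of all probes kept in WAT were called lower and 12.8% higher. Mmp12, the macrophage elastase, fell by 5.61 (SE 0.78, adjusted p = 0.00150), Mmp3 by 2.29 (SE 0.44), the inhibitor Timp1 by 2.26 (SE 0.35) and the lysosomal collagenase Ctsk by 2.11 (SE 0.36). Of 10 receptors 2 were lower, Mrc2, which takes up collagen fragments (-2.13, SE 0.16), and Lair1, a collagen receptor of leukocytes (-1.38, SE 0.39). Of 16 basement membrane partners 2 were lower, Lamb3 (-1.56, SE 0.20) and Sparc, a collagen-binding protein (-0.43, SE 0.11). In the TGF-beta list 1 of 18 was lower, Tgfb1 (-0.84, SE 0.15), and 4 were higher, Tgfb3 (0.62, SE 0.15), Ccn2 (0.61, SE 0.12), Tgfbr3 (0.50, SE 0.16) and Ltbp4 (0.41, SE 0.12).

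Markers of several cell types differed in the same WAT arrays, where 9.14% of all probes kept were called lower and 12.8% higher. Of 8 macrophage markers 7 were lower (median -1.60, summed level 137 to 177 in sg/sg and 187 to 326 in WT WAT), as were all 5 markers of proliferating cells (median -2.12, summed level 1.16 to 2.66 in sg/sg and 4.15 to 13.7 in WT WAT). Of 8 adipocyte markers 4 were higher and Lep was lower (median 0.55, summed level 1070 to 1440 in sg/sg and 628 to 1010 in WT WAT). Fibroblast markers, the cells that make most fibrillar collagen, had 2 of 8 lower, Lum (-0.91, SE 0.20) and Mfap5 (-0.84, SE 0.22), and summed to 205 to 240 in sg/sg and 195 to 236 in WT WAT. The other members were not called, with Thy1 at -0.26, Dpt at -0.24, Pdgfra and Cd34 at -0.01, Dcn at 0.27 (SE 0.11) and Pi16 at 0.64. None of 6 endothelial markers was called, and no epididymal marker was called among 2 measured. The part of these markers in the collagen result was not tested.

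In liver 5 of 40 measured collagen probes were called, near the share of all probes kept there (14.6%). Of these 4 were higher and 1 was lower in sg/sg, beside 8.10% of all probes higher and 6.49% lower. The median difference was 0.05, beside 0.04 for all probes. The genotypes did not overlap, with sg/sg higher, for 3 of the 40 probes (background 6.62%), and with sg/sg lower for 1 (background 5.56%). With median scaling between arrays the split was 3 higher and 2 lower, in a fit that called 12.8% of all probes. With slide as a fixed block 0 collagen probes were called by limma (4 at an unadjusted p under 0.05), in a fit that called 3 of all probes. Genotype and slide were largely confounded in liver, so each call is followed by its value within slide 2, where 3 sg/sg arrays met 1 WT array.

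The lower gene was Col5a3, with 0.31, 0.06, -0.26, 0.12 and 0.31 in sg/sg liver, against 1.64, 2.17, 1.26, 1.56 and 1.13 in WT liver at chr9:20639940-20639999. The groups were far apart, with a fall by 1.44 (SE 0.19, 2.72-fold, adjusted p = 0.00432), and within slide 2 the difference was -1.09. Its second and dimmer probe, the glycine-repeat sequence shown above, was at 0.06 (SE 0.26) and was not called. Within arrays the change of Col5a1 was 1.21 above that of Col5a3 (SD 0.37 in sg/sg and 0.22 in WT, two-sided exact permutation p = 0.00794, adjusted 0.0278, n = 5 each). This pair was chosen after its values were seen, and the test took no account of slide, so the p is descriptive. Of 8 adipocyte markers 4 were measured in liver, and 2 of those were lower in sg/sg, where 6.49% of all probes kept were called lower. Adipoq, Lep, Plin1 and Retn were not kept in liver, and Adipoq and Plin1 were above background on no WT liver array. Cfd, a serine protease of fat cells, was at -5.81, -3.96, -4.76, -5.85 and -2.18 in sg/sg liver, against -0.68, 3.20, 2.99, 1.35 and 2.20 in WT liver. Cidec, a lipid droplet protein, was at -3.42 (SE 0.69), and Fabp4 and Pck1 were not called at -0.09 and 0.22. The summed level of the list was 141 to 277 in sg/sg and 132 to 224 in WT liver. Pck1 made up most of it, with mean levels of 7.57 in sg/sg and 7.35 in WT liver. Fabp4 was next at 2.65 and 2.74, so the sum says little about Cfd and Cidec. Whether adipocyte RNA has a part in the Col5a3 result was not tested.

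Col18a1, which hepatocytes make and whose end fragment is endostatin, was higher with both probes. At chr10:76707663-76707722 it had 7.66, 7.75, 7.68, 7.87 and 7.83 in sg/sg liver, against 7.44, 7.24, 7.37, 7.33 and 7.53 in WT liver. No arrays overlapped, with a rise by 0.38 (SE 0.08, 1.30-fold, adjusted p = 0.0182), which was 0.17 within slide 2. The second probe, at chr10:76707908-76707967, rose by 0.38 (SE 0.08, adjusted p = 0.0149), and was at 0.20 within slide 2. The call of the brighter probe was lost with median scaling (0.27, adjusted p = 0.0607) and without WT replicate 4 (0.36, adjusted p = 0.0531). Of 6 hepatocyte markers 2 were higher in sg/sg liver, where 8.10% of all probes kept were called higher. The list summed to 1840 to 2100 in sg/sg and 1180 to 1730 in WT liver. Its median difference was 0.38, and 0.09 with slide as a fixed block.

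Col7a1, the anchoring fibril of epithelia, was dim, at -2.44, -2.55, -2.42, -2.47 and -3.09 in sg/sg liver, against -3.03, -4.19, -3.46, -3.77 and -3.52 in WT liver at chr9:108695073-108695132. It rose by 1.0 (SE 0.21, 2.0-fold, adjusted p = 0.0163) with 1 sg/sg array just within the WT range, and the difference within slide 2 was 1.05. Col11a2, a minor fibrillar chain of cartilage, read -3.05, -2.84, -3.11, -2.69 and -3.33 in sg/sg liver, above -3.45, -3.71, -3.60, -3.93 and -3.65 in WT liver at chr17:32145178-32145237. It rose by 0.66 (SE 0.13, 1.58-fold, adjusted p = 0.0142), and the difference within slide 2 was 0.64. Its glycine-repeat probe was at 0.17 (SE 0.16) in the same arrays.

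**Figure D4:**
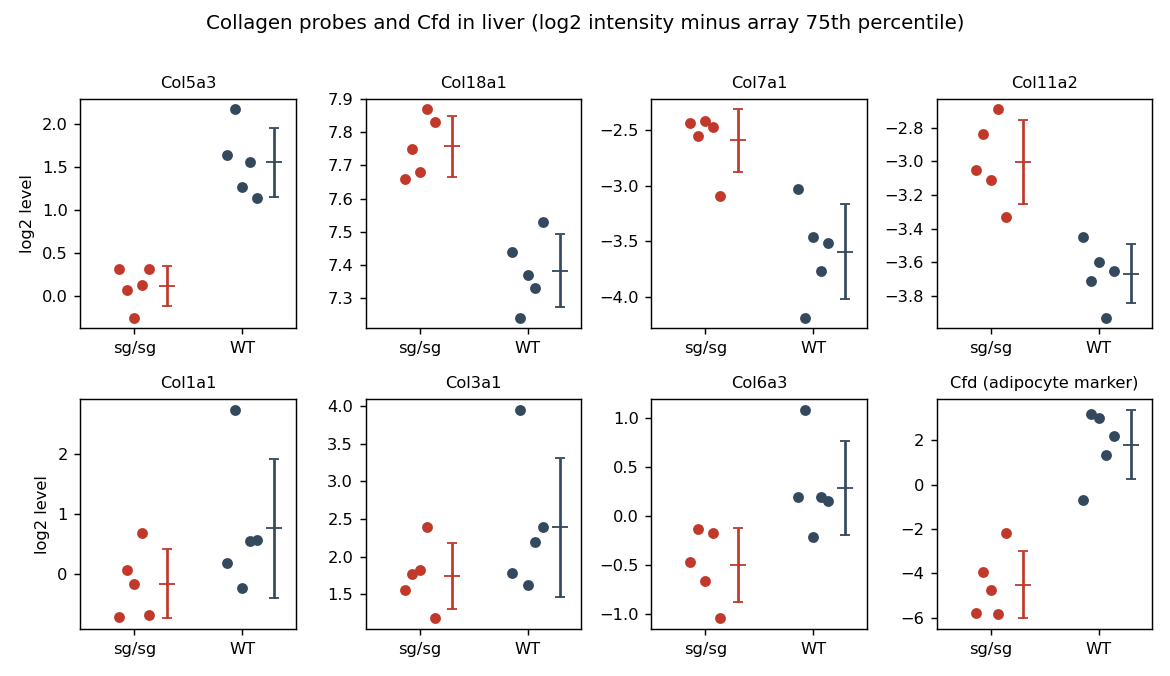
Log2 level (intensity minus the 75th percentile of the array) in liver of 7 collagen genes and of the adipocyte gene Cfd, 1 point per array, with sg/sg left of WT and the mean ± SD of 5 arrays beside the points. The genotypes are separate for Col5a3, Col18a1, Col11a2 and Cfd, and 1 WT array stands above the rest for Col1a1 and Col3a1.

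The type I, III, IV and VI chains and the Col5a1 and Col5a2 chains that fell in WAT were not called in liver, where WT replicate 2 was the highest WT array for 17 of the 28 genes. Col1a1 had -0.72, 0.07, -0.16, 0.68 and -0.68 in sg/sg liver, against 0.18, 2.74, -0.23, 0.55 and 0.56 in WT liver, a difference of -0.92 (SE 0.50, adjusted p = 0.234) that was -0.42 without WT replicate 2. Col1a2 had 0.58, 1.07, 1.25, 1.23 and 0.66 in sg/sg liver, against 0.79, 2.77, 0.80, 1.15 and 1.60 in WT liver (-0.47, SE 0.35, and -0.13 without WT replicate 2). For Col3a1 the arrays read 1.56, 1.77, 1.82, 2.39 and 1.18 in sg/sg liver, against 1.78, 3.95, 1.62, 2.19 and 2.40 in WT liver (-0.64, SE 0.40, and -0.25 without WT replicate 2). The genotypes overlapped in all 3 genes, and WT replicate 2 stood above every other array. Col6a3 came closest to the threshold, with -0.47, -0.14, -0.67, -0.18 and -1.05 in sg/sg liver, against 0.19, 1.08, -0.22, 0.19 and 0.15 in WT liver (-0.78, SE 0.24, adjusted p = 0.0548). It was past the threshold under 5 of 23 alternative settings, among them normexp (adjusted p = 0.0355) and median scaling (adjusted p = 0.0440). Within slide 2 the Col6a3 difference was -0.58, and with slide as a fixed block it was not called. Within arrays the change of Col6a1 was 0.95 above that of Col6a3 (SD 0.23 in each genotype, two-sided exact permutation p = 0.00794, adjusted 0.0278). Here too the pair was chosen after its values were seen and slide was not taken into account, so the p is descriptive.

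The remaining type IV, V and VI chains differed little in liver. Col4a1 had -0.67, -0.60, -0.58, -0.18 and -0.57 in sg/sg liver, against -0.56, 0.23, -0.76, -0.47 and -0.61 in WT liver (-0.09, SE 0.18). Col4a2 had 0.10, -0.39, -0.04, 0.53 and 0.23 in sg/sg liver, against -0.10, 0.59, 0.10, 0.15 and -0.02 in WT liver (-0.06, SE 0.18). The level of Col5a1 was -0.56, -0.58, -0.61, -0.33 and -0.95 in sg/sg liver, against -0.47, 0.33, -0.85, -0.41 and -0.46 in WT liver (-0.24, SE 0.20). These groups overlapped throughout. Col5a2 was at -3.90, -0.94, -3.75, -3.29 and -3.74 in sg/sg liver, against -4.19, -2.48, -4.31, -4.42 and -3.57 in WT liver (0.67, SE 0.58), with sg/sg replicate 2 far above the rest. Col6a1 had -2.26, -1.83, -1.89, -1.90 and -2.53 in sg/sg liver, against -2.55, -1.28, -2.90, -2.49 and -2.06 in WT liver (0.17, SE 0.27). Col6a2 had -3.51, -3.12, -3.13, -3.37 and -3.97 in sg/sg liver, against -4.28, -2.92, -3.71, -3.41 and -3.12 in WT liver (0.07, SE 0.25). Col15a1 had -3.23, -2.91, -3.31, -2.18 and -2.44 in sg/sg liver, against -3.67, -1.45, -2.67, -2.96 and -2.89 in WT liver (-0.09, SE 0.37), and none of these was called.

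Other collagen-related genes in liver were set beside all probes kept there, of which 8.10% were called higher and 6.49% lower. Of 22 chaperones and modifying enzymes 3 were higher, Plod3 (0.48, SE 0.09), P4ha1, a subunit of prolyl hydroxylase (0.68, SE 0.15), and Colgalt2 (1.17, SE 0.26). None of 18 fibril-associated genes, 7 receptors or 4 crosslinking enzymes was called. Of 11 breakdown genes Timp1 (0.63, SE 0.14) and Ctsl (0.32, SE 0.09) were higher and Pepd, which splits proline dipeptides, was lower (-0.41, SE 0.11). Of 18 genes in the TGF-beta list 2 were higher, Skil (0.87, SE 0.13) and Tgfb1 (0.63, SE 0.11), and of 16 basement membrane partners Lamb3 was lower (-1.33, SE 0.32). Stellate cell markers, the main collagen-making cells of liver, had 1 of 8 higher, Rgs5 (0.66, SE 0.19), and summed to 13.3 to 17.9 in sg/sg and 11.3 to 15.0 in WT liver. Smooth muscle markers had 2 of 4 higher, macrophage markers 3 of 7 and endothelial markers 2 of 6.

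The genotype difference itself was compared between tissues for the 40 probes measured in both. In 9 of them it differed (adjusted p under 0.05 for the interaction), 8 with a lower and 1 with a higher value in WAT, beside 9.38% of all probes lower and 10.5% higher (19.9% in either direction). Col5a3 was the higher one, at 0.01 in WAT and -1.44 in liver (difference 1.45, SE 0.27, adjusted p = 0.00101). The lower ones were Col16a1 (-0.91, SE 0.25), Col6a2 (-1.0, SE 0.31), Col7a1 (-0.94, SE 0.29), Col11a2 (-0.64, SE 0.17, but 0.48 with normexp), Col4a1 (-0.66, SE 0.21), Col5a2 (-1.88, SE 0.63) and both Col4a2 probes (-0.88, SE 0.26, and -0.62, SE 0.21). With normexp the Col7a1 value was -0.28 (adjusted p = 0.593) and both Col4a2 probes lost their call (adjusted p = 0.0553 and 0.0782). With median scaling the split was 3 lower and 1 higher, in a fit that called 18.2% of all probes. Col6a2, Col4a1, Col5a2 and both Col4a2 probes lost their call there. The number was 5 without WT liver replicate 3 or without WT WAT replicate 1. The call was lost when 1 array was left out in 3 of 20 cases for Col6a2, 9 for Col4a1, 13 for Col5a2 and 15 for the brighter Col4a2 probe, at adjusted p of 0.0501 to 0.0793. For Col1a1, Col1a2, Col3a1 and Col6a3 the difference between tissues ran from -0.08 to 0.19 at their brightest probes and was not called. Liver slides enter these values too, since no slide held both tissues.

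Between tissues of WT mice, 42 of 67 collagen probes were higher in WAT than in liver and 13 were lower. Over all probes 34.2% were higher and 40.2% lower (74.4% in either direction). Of the 67 probes 40 were kept in both tissues, 27 in WAT alone and 0 in liver alone. Probes kept through WAT alone tend to be higher there by the filter itself, so they add to the 42. Tissue and slide cannot be told apart here. Type VI and V chains had wide gaps, with Col5a2 at 2.88 ± 0.11 in WT WAT and -3.80 ± 0.80 in WT liver (SD, n = 5 each), a difference of 6.68 (SE 0.45, 102-fold). Col6a2 differed by 6.60 (SE 0.22), Col6a1 by 6.41 (SE 0.26), Col4a1 by 5.09 (SE 0.15), Col1a2 by 4.75 (SE 0.28) and Col3a1 by 3.68 (SE 0.32) at their brightest probes. Higher in WT liver were Col18a1, at 4.60 ± 0.25 in WT WAT and 7.38 ± 0.11 in WT liver (-2.78, SE 0.15), Col13a1, a transmembrane collagen (-4.58, SE 0.31), and all 3 Col27a1 probes (-3.30 to -3.14). Col4a6 gave opposite answers by probe, with 5.46 (SE 0.33) for the probe that rose in sg/sg WAT and -1.35 (SE 0.12) for the probe that did not. The first of these was not well above background on any WT liver array, which makes it at least 26.6-fold higher in WT WAT.

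**Figure D5:**
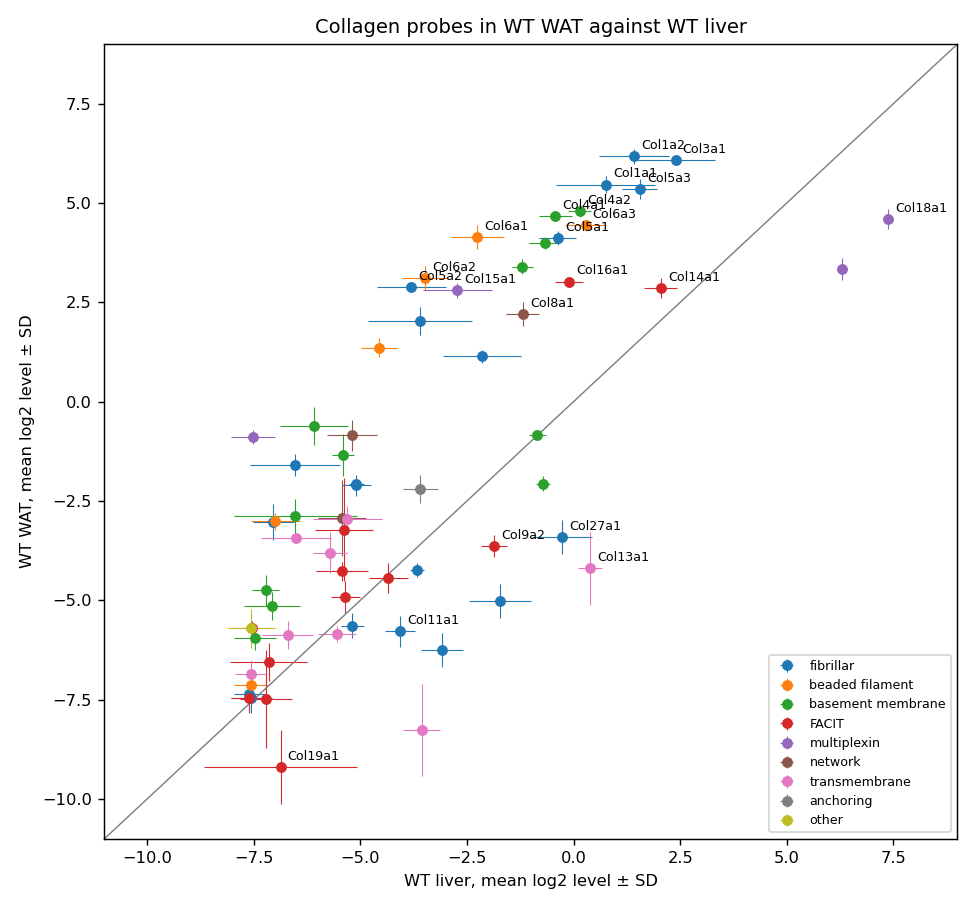
Mean log2 level ± SD of 67 collagen probes in WT WAT (vertical axis) against WT liver (horizontal axis), 5 arrays per tissue, coloured by role, with a grey line of equal level. Most fibrillar, type IV and type VI probes lie above the line, and Col18a1, Col13a1, Col27a1, Col9a2 and Col11a1 lie under it.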

How the data were processed

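RNA of 5 sg/sg and 5 WT samples of each of liver and WAT was hybridised to 20 Agilent 1-colour (Cy3) arrays. The series' design text gives 5 mice per genotype as the source of both tissues, but which liver and WAT arrays share a mouse is not labelled, so fits across tissues treated the arrays as independent. Per the file headers, the authors' scanner program subtracted background and detrended each array to give the processed intensity, with no scaling between arrays, and the submitters' processing notes name Agilent Feature Extraction 9.5. The deposited value table holds the same intensity. The deposited spot flags (above background, saturated, outlier) were used as filters. From the deposited intensity, log2 levels minus the 75th percentile of each array were computed, outlier spots were set missing (9 values in collagen probes), and spots of a probe were averaged. Probes well above background on 4 or more arrays of a tissue and missing on at most 2 were fitted with limma 3.58.1 in R 4.3.3 (lmFit, eBayes), with Benjamini-Hochberg adjustment over all probes kept and a threshold of 0.05. The fit was tested on simulated data. Collagens are the probes named Col, number, a, number, and of the 78 accessions 57 matched the same RefSeq symbol and 21 were not in the table. A gene is represented by its brightest probe in the tissue, disagreeing probes are stated, and values per array are given for 12 preset chains and for up to 4 further called members per role. One gene of the TGF-beta list is not reported here, and its list is counted without it. The members, lists and tests were chosen with earlier results of these data known. Alternatives were normexp (offset 50), median and quantile scaling, other filters, slide and replicate blocks, array weights and leaving out each array. The number of arrays limits the precision.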

Additional observations from a re-analysis of the deposited data

Results flagged for a closer look

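In 9 of 90 groups of 5 arrays screened, 1 array stood apart by Dixon's criterion, which chance meets in about 1 of 20 groups. In liver, Col1a1 was at 2.74 in WT replicate 2, against -0.23 to 0.56 in the other WT arrays. Col5a2 was at -0.94 in sg/sg replicate 2 (others -3.90 to -3.29), Col4a1 at -0.18 in sg/sg replicate 4 (others -0.67 to -0.57) and Col7a1 at -3.09 in sg/sg replicate 5 (others -2.55 to -2.42). In WAT, the second Col4a1 probe was at 2.79 in sg/sg replicate 4 (others 3.51 to 3.72) and the second Col4a2 probe at 1.82 in the same array (others 2.67 to 2.79), while the brightest probes of both genes did not stand apart there. Col4a6 was at 0.92 in sg/sg replicate 3 (others 0.45 to 0.48). In WT replicate 2 of WAT, Col1a1 was at 5.83 (others 5.31 to 5.46) and Col5a1 at 3.81 (others 4.14 to 4.26).

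The genotype difference of 9 probes differed between WAT and liver by the interaction test in limma. It was higher in WAT by 1.45 for Col5a3. It was lower in WAT for Col16a1 (-0.91), Col11a2 (-0.64), Col7a1 (-0.94), Col6a2 (-1.0), Col4a1 (-0.66), Col5a2 (-1.88) and the Col4a2 probes (-0.88 and -0.62).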

How the results depend on the processing

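In WAT 27 collagen probes were called, 10 with normexp, 17 with 1 probe per gene (fewer probes tested) and 21 to 27 with 1 array left out. Of all probes 21.9% were called in the main WAT fit, 4.62% with normexp and 23.8% with 1 probe per gene. Within slide 1 alone (2 against 2 arrays) 0 were called by limma (23 at an unadjusted p under 0.05). Over all probes 0 were called there too, so this count says nothing about stability. Slides 2 (1 sg/sg against 2 WT) and 3 (2 sg/sg against 1 WT) held a lone array of 1 genotype, so no count is given for them. In liver 5 were called, 8 with array weights, 4 to 7 with 1 array left out and 0 with slide as a fixed block (4 before adjustment for multiple tests). Of all probes 14.6% were called in the main liver fit and 22.1% with array weights. In liver slide 2 by itself 3 sg/sg arrays met 1 WT array, so only differences of single probes are given for it. The 9 interaction calls became 5 with normexp, 4 with median scaling and 5 to 11 with 1 array left out. For the interaction 19.9% of all probes were called in the main fit, 11.1% with normexp and 18.2% with median scaling. Between WT tissues 55 were called, 32 with 1 probe per gene and 53 to 56 with 1 array left out. These stood beside 74.4% of all probes in the main fit and 75.8% with 1 probe per gene. Over all probes the median WT WAT minus WT liver difference was -0.13, and -0.60, -0.30 and 0.05 with normexp, median and quantile scaling. Normexp reversed Col12a1 (0.38), the dim probes of Col16a1 (1.03), Col1a1 (0.05) and Col6a3 (0.13 and 1.13) in WAT, and the Col11a2 interaction (0.48), and the cause was not tested. Among values of single probes under all alternatives, 1566 kept their side of the threshold, 222 lost the call and 5 gained one. The other 6 changed sign with a call in the main or the alternative fit. Changes of sign in values called in neither fit are counted among the 1566. Replicate numbers do not pair the arrays (correlations of deviations -0.14 to 0.17). With the replicate block 19 collagen probes were called in WAT, 4 in liver, 8 in the interaction and 54 between tissues. Those fits called 13.9%, 6.72%, 18.6% and 73.7% of all probes. Dim probes near background have the least precision.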
